A study of Arabidopsis thaliana with 8 samples.

Results

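Of the 33602 genes in the expression table, 114 were lower after 1 hour of simulated shade than in sun by a rule on 4 libraries. On the scale of log2(CPM + 1), where CPM is the read count of a gene relative to the size of its library, both shade libraries had to lie below both sun libraries at 1 hour, the means had to differ by at least 0.7, and the sun mean had to reach 10 CPM. Of the 12382 genes that reached 10 CPM in sun at 1 hour, 0.921% met the rule. The genes were thus chosen by their 1 hour values, so these are a description. The group was followed in the 4 hour libraries, whose levels the rule did not use. The test at 4 hours took its estimate of spread from all 8 libraries, so the 1 hour replicates also entered its standard errors and p-values. Wild-type Col plants were grown for 2 weeks, and leaves with the shoot apex were harvested after cotyledons, hypocotyls and roots had been cut away. The 4 conditions were shade for 1 hour, sun at 1 hour, shade for 4 hours and sun at 4 hours, in 2 replicates each, every replicate being a pool of 5 plants. By the study's methods sun and shade were both white light with added far-red light, and shade had the lower ratio of red to far-red light. Shade was switched on 4 hours after lights on (ZT 4), so tissue was taken at ZT 5 and ZT 8. The sun plants shared genotype, age and harvest time with the shade plants.

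In sun the photoreceptor phytochrome B is mostly in its active form, and far-red light turns it back to the inactive form, which lets PHYTOCHROME-INTERACTING FACTOR (PIF) proteins act on their target genes. Shaded plants elongate, and they are known to put less into defence. Much of that defence runs through jasmonate: JAZ proteins hold back the transcription factor MYC2 and its relatives until a jasmonate conjugate causes their breakdown, after which genes for wound proteins, defence compounds and the JAZ repressors themselves are transcribed. Light also drives the genes of flavonol and anthocyanin synthesis and of nitrate reduction, which are among the genes followed here.

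Libraries held between 1154019 and 4680620 reads on genes. The smallest was replicate 1 of 4 hour shade, where counting alone gives a coefficient of variation of 29.3% at 10 CPM, against 14.7% to 17% in the others. These figures cover counting error only. The leaf part of the tissue label was borne out by leaf mesophyll genes (*RBCS1A*, *LHCB1.3*, *CA1*, *RCA*, *GAPA*), which summed to between 34202 and 45407 CPM in every library. Shoot meristem markers summed to 13.2 to 22.3 CPM and root markers to 18 to 35.2 CPM, with 1 meristem and 2 root genes at 0 throughout. Most of the root sum was *SHR* (17.2 to 27.4 CPM), and *WER* had 9.49 CPM in replicate 2 of 1 hour sun. The design compares RNA from pooled tissue, so fewer cells of a type and less RNA per cell cannot be told apart.

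All 114 genes passed the filter on low values (at least 1 CPM in 2 or more libraries), which 19280 genes passed. They hold 111 distinct sets of values, because 3 gene models at 1 locus (AT5G50010, AT5G50011 and AT5G50012) had the same value in every library, as did *CYP81F4* and AT4G37409, whose models overlap by 2140 bases on opposite strands. The difference at 1 hour was between -2.73 and -0.70 with a median of -0.81, and 24 genes were lower by at least 1. Most had few reads: the median mean level in sun at 1 hour was 18.4 CPM, 61 genes were under 20 CPM and 4 were at 100 CPM or more. Just inside the threshold were AT1G08220 at -0.704, AT4G30150 at -0.703 and AT2G34670 at -0.702, and just outside it AT3G33000 at -0.69997, AT5G21482 at -0.69976 and AT1G75140 at -0.697. With the direction turned round, and 10 CPM asked of the shade mean in place of the sun mean, the rule took 264 genes that were higher in shade. Genes with annotation (112 of the 114) were spread over the chromosomes, 33 on chromosome 1, 19 on 2, 18 on 3, 21 on 4 and 21 on 5, and only 3 pairs stood next to each other or 1 gene apart.

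At 4 hours shade and sun libraries overlapped in about the same share of these genes as of all tested genes. In 69 of the 114 (60.5%) the 4 hour libraries overlapped, against 62.2% of all tested genes. Both shade libraries were below both sun libraries in 33 (28.9%), against 20.9% of all tested genes, and above them in 12 (10.5%), against 16.9%. The median difference was -0.14 over the 114 genes and -0.03 over all tested genes, and 72 of the 114 (63.2%) were below 0, against 53.4%. The size of that median rested on single libraries: it was -0.24 without replicate 1 of 4 hour shade, -0.06 without replicate 2 of 4 hour shade, -0.23 without replicate 1 of 4 hour sun and -0.05 without replicate 2 of 4 hour sun, while that of all tested genes stayed between -0.03 and -0.01. In the limma fit across all genes, no member reached an adjusted p of 0.05. That level was reached by 5 genes lower in shade (0.0259%) and 18 higher in shade (0.0934%), and only 1 gene in the table (0.00519%) reached 0.001. The count at 0.001 depended on the test: edgeR's exact test with 1 common dispersion called 112 genes, 4 of them members. The study, which used edgeR, also listed far more than 1 gene at 4 hours at 0.001. At an unadjusted p of 0.05 in limma, 17 members (14.9%) were lower in shade, against 5.13% of all tested genes, and 7 (6.14%) were higher, against 3.48%. With limma fitted on the 4 libraries at 4 hours alone, 10 members were lower at that level (all tested genes: 3.65%) and 7 higher (2.85%). On the recovered reads, edgeR's quasi-likelihood test called 2 members at an adjusted p of 0.05, among 28 of all 19280 genes (0.145%), DESeq2 called 2 among 49 (0.254%), and edgeR's exact test with 1 common dispersion called 9 among 278 (1.44%). Without replicate 2 of 4 hour shade, limma called 14 members among 921 genes (4.78%), and without replicate 1 it called 1 among 31 (0.161%).

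**Figure D1:**
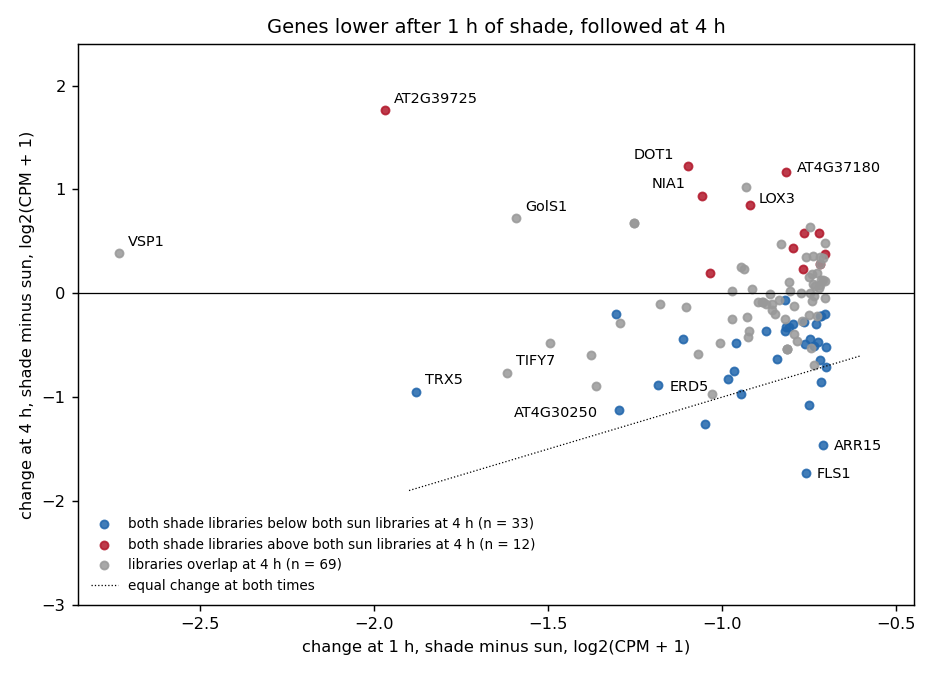
Each point is 1 of the 114 genes, with its shade minus sun difference at 1 hour on the horizontal axis and at 4 hours on the vertical axis, both as log2(CPM + 1). All points lie left of -0.70 by the rule, while at 4 hours they run from -1.73 (*FLS1*) to 1.77 (AT2G39725) around a median of -0.14, with 33 blue (lower), 12 red (higher) and 69 grey (overlapping) genes.

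A difference at 4 hours counted as beyond the replicate spread when it was larger than the distance between replicates in both shade and sun. That held for 30 members (26.3%), against 24.7% of all tested genes. The replicates themselves lay far apart in many members. At 4 hours, the shade replicates were at least 1 log2 unit apart in 27 members (23.7%), against 11.1% of all tested genes and 4.48% of those with at least 10 CPM in sun at 1 hour. The sun replicates at 4 hours were that far apart in 13 members (11.4%), against 2.28% of all tested genes and 0.347% of those at that level. That level is a minimum, and members lay near it, with a median of 18.4 CPM. At 1 hour, where the rule chose the genes, the shade replicates were that far apart in 13 members (11.4%) and the sun replicates in 5 (4.39%). Those shares were 4.41% and 3.13% of all tested genes, and 0.913% and 0.686% of those at that level. With 2 replicates a condition, the smallest p of an exact permutation test of 1 gene is 0.333, so only the fit that shares its spread over all genes can give a call.

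In 19 members replicate 1 of 4 hour shade exceeded replicate 2 by at least 1 log2 unit. Of these, 5 were in the jasmonate or wound lists, as were 2 of the remaining members. Those lists hold 14, 10, 8, 13 and 26 of the 19280 tested genes, and the counts were not tested. Ranked by that distance the 19 members were *VSP1*, *LOX3*, *GolS1*, *MBP1*, AT1G07135, *TSA1*, *TIFY7*, *CYP81F4* with AT4G37409, *PMEPCRA*, *ERF104*, *IGMT5*, *PGIP2*, AT2G39725, *HMT3*, AT1G76780, *SIP2*, *CLH1* and AT3G51450. In 17 of the 19, replicate 2 was the higher sun library at 4 hours, and in 17 replicate 1 was the higher sun library at 1 hour. Over all 114 members those counts were 66 and 61. In 12 of the 19, replicate 1 of 4 hour shade was above both sun libraries, and in 14 replicate 2 was below both. The 19 were chosen by the distance between those shade libraries, and the lists were written with earlier results of these data known. These counts and positions are therefore a description only.

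The promoters of 3 of them are printed to show where motifs of the light and jasmonate pathways stood in jasmonate genes of the group. The window is the 250 bases before the annotated transcript start in RefSeq's TAIR10.1 annotation, read 5′ to 3′ on the strand of the gene. On both strands the search was for the PBE-box CACATG, which PIF proteins bind, the T/G-box AACGTG, which MYC2 binds, and the G-box CACGTG, which both bind, and every match is in capitals. The 3 windows lie at chr1:26654279-26654528 (+) for *TIFY7*, chr1:5977073-5977322 (+) for *LOX3* and chr5:8509202-8509451 (-) for *VSP1*.
*TIFY7*: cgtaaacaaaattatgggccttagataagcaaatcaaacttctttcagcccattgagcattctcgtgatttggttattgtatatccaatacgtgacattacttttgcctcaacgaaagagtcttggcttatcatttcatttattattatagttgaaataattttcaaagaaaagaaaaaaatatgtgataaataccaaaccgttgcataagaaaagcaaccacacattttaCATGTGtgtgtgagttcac
*LOX3*: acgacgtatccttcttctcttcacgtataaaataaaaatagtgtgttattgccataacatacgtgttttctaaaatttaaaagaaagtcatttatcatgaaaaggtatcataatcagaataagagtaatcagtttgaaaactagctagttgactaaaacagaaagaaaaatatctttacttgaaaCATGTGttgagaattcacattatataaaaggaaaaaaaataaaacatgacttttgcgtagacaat
*VSP1*: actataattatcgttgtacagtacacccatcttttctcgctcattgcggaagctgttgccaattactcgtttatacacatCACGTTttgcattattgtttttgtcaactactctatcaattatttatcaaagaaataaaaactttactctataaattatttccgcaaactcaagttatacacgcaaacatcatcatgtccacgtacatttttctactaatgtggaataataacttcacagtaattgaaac

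The PBE-box stood on the reverse strand in *TIFY7* and *LOX3*, and the T/G-box on the reverse strand in *VSP1*. Of the 110 members with a promoter window, 18 (16.4%) held the PBE-box, against 11.1% of 18573 windows of tested genes, and 12 (10.9%) held the T/G-box, against 7.07%. The G-box was in 8 (7.27%), against 7.37%. Among the 19 genes with distant shade replicates, 8 held the PBE-box (among them *TIFY7*, *LOX3*, *CLH1*, *MBP1*, *HMT3*, *ERF104* and *PMEPCRA*), 4 the T/G-box and 4 the G-box. Of 5 further motifs, the W-box core TTGAC was in 47.3% of members against 44.3% of all windows, the telo-box AAACCCTA in 4.55% against 3.66%, the site II motif TGGGCC in 12.7% against 17.1%, the evening element AAAATATCT in 4.55% against 2.57%, and the GCC-box GCCGCC in none against 1.93%. A match describes letters in a window and not a bound site, and motifs of these lengths can overlap one another.

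*VSP1* encodes a vegetative storage protein that accumulates in wounded leaves, and it had the largest difference at 1 hour, -2.73. It had 6.27 and 1.44 CPM in shade at 1 hour, against 97.4 and 6.98 CPM in sun at 1 hour. At 4 hours it had 231 and 3.78 CPM in shade, against 7.72 and 73.1 CPM in sun. Shade replicate 1 was the highest library and shade replicate 2 the lowest of the 4, so the groups overlapped completely, and the difference was 0.39 (SE 1.47, adjusted p = 0.964, limma). Its close homologue *VSP2*, which missed the rule, had 408 and 27.3 CPM in shade at 4 hours, against 41.2 and 269.7 CPM in sun. Of the 40-base windows of the *VSP1* gene, 2.29% occur again in the genome, where reads of that length could be shared.

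Both JAZ genes among the members had overlapping libraries at 4 hours. *TIFY7*, which encodes JAZ9, had 16 and 23.6 CPM in shade at 1 hour, against 78 and 48.8 CPM in sun, a difference of -1.62. In 4 hour plants the values were 83.1 and 15.7 CPM in shade, against 30.9 and 126 CPM in sun. Replicate 1 of shade lay between the sun libraries and replicate 2 below both, and the difference was -0.76 (SE 0.64, adjusted p = 0.8, limma). *TIFY10B*, which encodes JAZ2, differed by -0.75 at 1 hour and had 48 and 23.5 CPM in shade at 4 hours, against 32.4 and 46.8 CPM in sun, where the groups overlapped again. Of the 10 tested genes of the JAZ list of 12, 2 were lower without overlap at 4 hours, against 20.9% of all tested genes. None of the 10 passed an adjusted p of 0.05, and the list's median at 4 hours was -0.24 beside -0.03 for all genes.

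*LOX3* encodes a lipoxygenase at the entry to jasmonate synthesis. At 1 hour it had 6.49 and 3.74 CPM in shade, against 8.72 and 12.3 CPM in sun. After 4 hours there were 82.2 and 7.56 CPM in shade, against 10.8 and 13.5 CPM in sun, so that 1 shade library was above both sun libraries and 1 below both. The difference was 1.03 (SE 0.70, adjusted p = 0.743, limma), it was -0.61 without replicate 1 of 4 hour shade and 2.67 without replicate 2, and edgeR's exact test with a common dispersion gave an adjusted p of 1.32e-06. Of 14 tested genes of jasmonate synthesis, 2 were lower without overlap at 4 hours and 1 was higher (*JAR1*, 0.36, adjusted p = 0.71, limma). Among all tested genes 20.9% were lower and 16.9% higher without overlap.

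*CLH1* encodes chlorophyllase 1, which wounding and jasmonate are known to induce. It had 162 and 75.6 CPM in shade at 4 hours, against 107 and 241 CPM in sun, with a difference of -0.53 (SE 0.38, adjusted p = 0.763, limma) and libraries that overlapped. Over the jasmonate output list (15 genes, among them *VSP1*, *VSP2*, *CORI3*, *ARGAH2* and *MYC2*), summed levels were 229.7 and 274 CPM in shade at 1 hour, against 1023 and 284 CPM in sun. At 4 hours the sums were 1874 and 308 CPM in shade, against 362 and 1091 CPM in sun. The same 3 libraries, replicate 1 of 4 hour shade, replicate 2 of 4 hour sun and replicate 1 of 1 hour sun, were the high ones for this list and for *VSP1*, *MBP1*, *GolS1*, *IGMT5* and *PGIP2*, and what set those libraries apart was not tested. Of the 13 tested genes of the list, none was lower without overlap at 4 hours (all tested genes: 20.9%) and 1 was higher (all tested genes: 16.9%). The higher gene was *TPS04*, a terpene synthase, with 18.8 and 4.36 CPM in shade, against 0 and 0.95 CPM in sun (adjusted p = 0.113, limma). The 11 genes of the jasmonate inactivation list, of which 8 were tested and none was a member, had the same high library in shade. Their sums at 4 hours were 321 and 46.5 CPM in shade, against 33.3 and 89 CPM in sun.

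**Figure D2:**
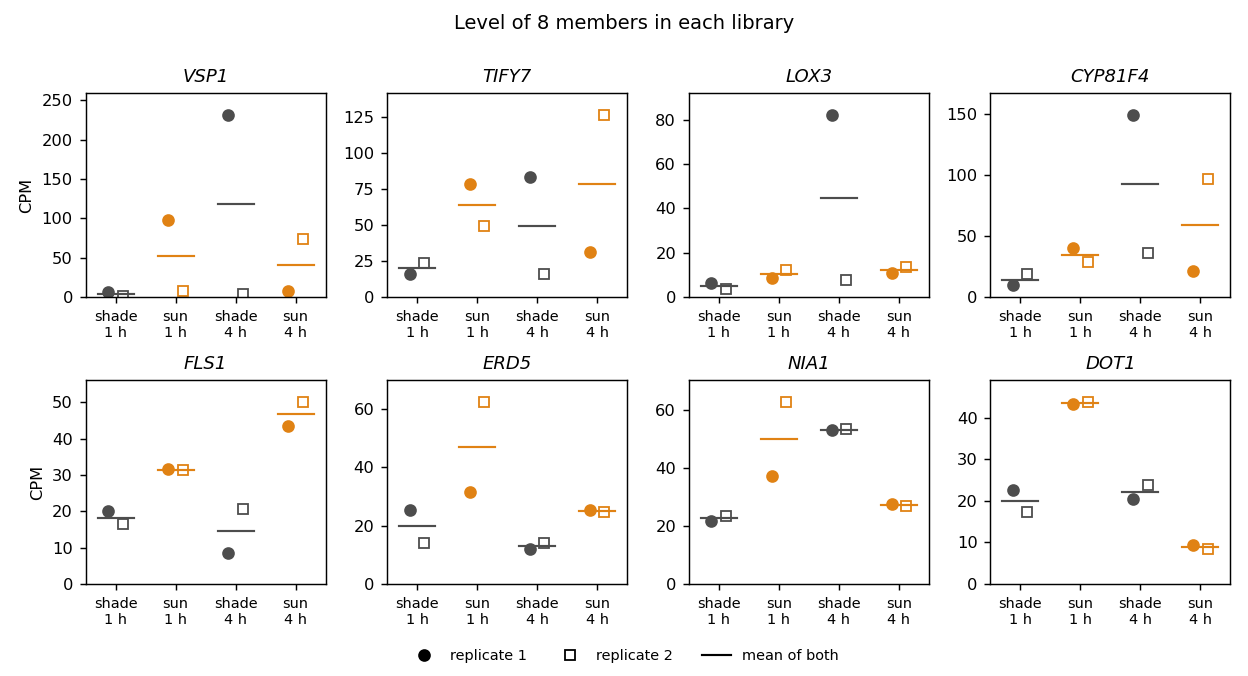
CPM of 8 members in the 8 libraries, by condition, with replicate 1 as filled circles, replicate 2 as open squares and a line at their mean. In the upper row 1 shade library stands high and the other low at 4 hours (*VSP1* 231 and 3.78 CPM), while in the lower row the 4 hour shade libraries both lie below both sun libraries (*FLS1*, *ERD5*) or above both (*NIA1*, *DOT1*).

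Glucosinolate defence was represented by *CYP81F4*, *IGMT5*, *MBP1* and *TSA1*. *CYP81F4* (chr4:17590772-17592920, + strand) encodes a cytochrome P450 that hydroxylates indole glucosinolates, and *IGMT5* encodes a methyltransferase that acts on its product. Since the *CYP81F4* values equal those of AT4G37409 on the other strand, the reads cannot be assigned to one of them. At 4 hours *CYP81F4* had 149 and 36 CPM in shade, against 21.4 and 96.6 CPM in sun, a difference of 0.67 (SE 0.62, adjusted p = 0.82, limma), with shade replicate 1 above every other library. *IGMT5* had 118 and 32 CPM in shade, against 50.5 and 125 CPM in sun, with shade replicate 1 between the sun libraries and replicate 2 below both. *MBP1*, whose product binds myrosinase, the enzyme that cleaves glucosinolates, had 71.1 and 7.56 CPM in shade, against 14.6 and 27.1 CPM in sun. *TSA1*, whose product takes part in forming ER bodies, had 206 and 37.5 CPM in shade, against 56 and 85.5 CPM in sun. In both, shade replicate 1 was above and replicate 2 below the sun libraries. Most other genes of this pathway were lower at 4 hours. Of 34 tested genes of the glucosinolate list, 25 were lower without overlap and none was higher without overlap. In limma 3 passed an adjusted p of 0.05 (*SOT17*, *IPMI1* and *IPMI2*, all lower), and *CYP81F4* was the only member among the 34. *CYP79B2* had 92.5 and 30.5 CPM in shade, against 39 and 66.2 CPM in sun. *CYP79B3* had 135 and 36.6 CPM in shade, against 39 and 87.4 CPM in sun. Both overlapped, and shade replicate 1 was their highest library at 4 hours, as in *CYP81F4*. Among all tested genes 20.9% were lower and 16.9% higher without overlap. No pathway list was tested as a set, and the lists were written with earlier results of these data known.

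**Figure D3:**
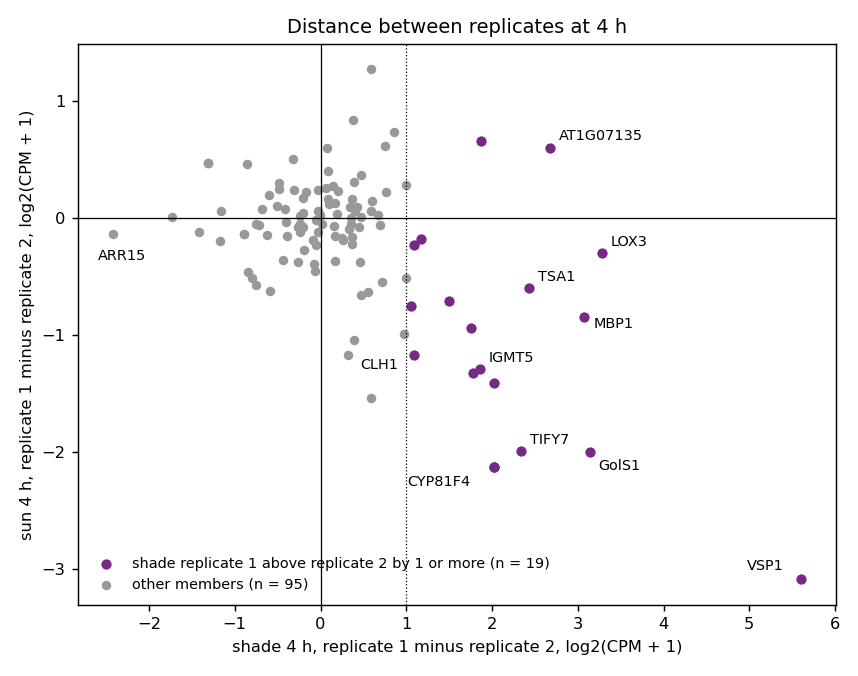
Distance between replicates at 4 hours in log2(CPM + 1), replicate 1 minus replicate 2, in shade on the horizontal axis and in sun on the vertical axis, for the 114 members. The 19 purple points lie at 1 or more on the shade axis, and 17 of them lie below 0 on the sun axis, from *LOX3* at -0.30 to *VSP1* at -3.09 among the named jasmonate genes.

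A pair of enzymes of raffinose metabolism was in the group. *GolS1* encodes galactinol synthase, which makes the donor for raffinose synthesis, and differed by -1.59 at 1 hour. It had 28.3 and 2.33 CPM in shade at 4 hours, against 1.98 and 10.9 CPM in sun, and the groups overlapped with a difference of 0.73 (SE 0.83, adjusted p = 0.861, limma). *SIP2*, which encodes a galactosidase that degrades raffinose, had 68.5 and 31.7 CPM in shade at 4 hours, against 73 and 85.9 CPM in sun. There both shade libraries were below both sun libraries, by -0.75 (SE 0.28, adjusted p = 0.473, limma), and without shade replicate 1 the adjusted p was 0.0239.

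Rapidly induced stress genes made up a small share. *ERF104*, an ethylene response factor, had 15.4 and 3.49 CPM in shade at 4 hours, against 20.1 and 12.3 CPM in sun. *SZF1*, a zinc finger protein of the salt and wound response, had 18.8 and 12.2 CPM in shade, against 24.3 and 9.5 CPM in sun. Both overlapped, with differences of -0.97 (SE 0.47, adjusted p = 0.609, limma) for *ERF104* and -0.01 (SE 0.37, adjusted p = 0.998, limma) for *SZF1*. Of 26 tested rapid wound and touch genes, 5 were lower without overlap at 4 hours, against 20.9% of all tested genes. None of the 26 passed an adjusted p of 0.05.

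Both members of flavonoid synthesis were below sun without overlap at 4 hours, as the rule had required at 1 hour. *FLS1* (chr5:2803833-2805606, + strand), which encodes flavonol synthase, had 20.1 and 16.4 CPM in shade at 1 hour, against 31.6 and 31.3 CPM in sun. At 4 hours it had 8.56 and 20.6 CPM in shade, against 43.4 and 50.1 CPM in sun. Both shade libraries were far below both sun libraries, and the difference of -1.73 (SE 0.30) was the lowest of all members and had the smallest adjusted p, 0.0531 in limma. It passed 0.05 in edgeR's quasi-likelihood test (adjusted p = 0.0375), edgeR's exact test (2.46e-06) and DESeq2 (0.00614), and in limma with the higher filter of 5 CPM (0.0437) or without replicate 2 of 4 hour shade (0.000184), and the adjusted p was 0.616 at its highest over all alternatives. *EGL3*, a bHLH factor that activates late flavonoid genes and trichome formation, had 6.85 and 10.2 CPM in shade at 4 hours, against 12.8 and 11.9 CPM in sun, without overlap, at -0.51 (SE 0.28, adjusted p = 0.675, limma).

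Of the 22 tested genes of the flavonoid and anthocyanin list, 20 were lower without overlap at 4 hours, against 20.9% of all tested genes. This list too was written with earlier results of these data known and was not tested as a set. The list's median at 4 hours was -0.87, beside -0.03 for all genes, and chalcone synthase (*CHS*), the first enzyme of the pathway, passed with an adjusted p of 0.0384 (difference -1.08, limma), having 59.1 and 67.7 CPM in shade at 4 hours, against 122 and 150 CPM in sun. The gene higher without overlap at 4 hours was *MYBL2*, a repressor of anthocyanin synthesis, with 33.4 and 23.3 CPM in shade, against 15.4 and 13.5 CPM in sun (adjusted p = 0.177, limma). Summed over the list, levels at 4 hours were 390.5 and 372 CPM in shade, against 621 and 786 CPM in sun, with the shade replicates close together where the jasmonate sums were far apart.

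**Figure D4:**
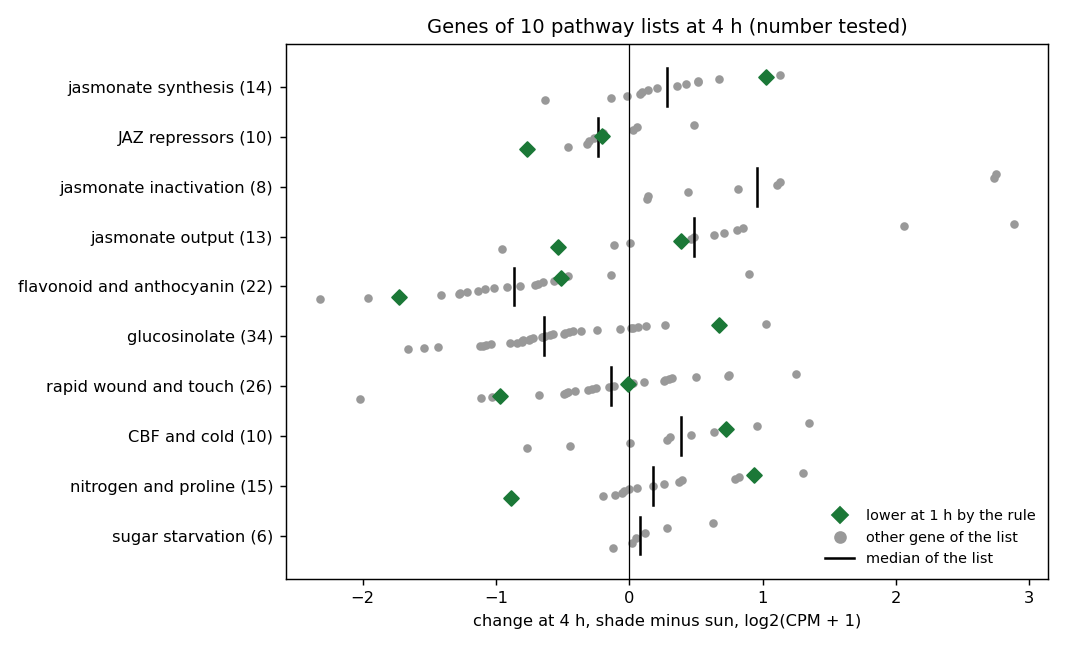
Shade minus sun difference at 4 hours, in log2(CPM + 1), for each tested gene of 10 pathway lists, with members as green diamonds, other genes as grey points and a line at the median of each list. The flavonoid and anthocyanin list has a median of -0.87 and the glucosinolate list -0.64, while the jasmonate output and inactivation lists have medians of 0.49 and 0.96, where shade replicate 1 stood above both sun libraries and replicate 2 lay below at least 1 of them in the summed levels.

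Nitrogen and proline metabolism held members on both sides. *ERD5*, which encodes proline dehydrogenase, the enzyme that starts proline breakdown, had 25.3 and 14.1 CPM in shade at 1 hour, against 31.4 and 62.2 CPM in sun. In 4 hour plants it had 12 and 14 CPM in shade, against 25.1 and 24.5 CPM in sun. The replicates lay close together, with both shade libraries below both sun libraries, by -0.89 (SE 0.31, adjusted p = 0.435, limma).

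*NIA1*, which encodes a nitrate reductase, had 21.8 and 23.6 CPM in shade at 1 hour, against 37.1 and 62.8 CPM in sun. By 4 hours the levels were 53.1 and 53.5 CPM in shade, against 27.6 and 27.1 CPM in sun. The direction was opposite at the later time and the replicates nearly coincided, with a difference of 0.94 (SE 0.22, adjusted p = 0.177, limma), which passed 0.05 in edgeR's exact test (0.0107). *NIA2*, the other nitrate reductase gene, had 247 and 155 CPM in shade at 4 hours, against 171 and 155 CPM in sun. Of the 15 genes of the list, 1 was lower and 5 were higher without overlap at 4 hours. Among all tested genes those shares were 20.9% lower and 16.9% higher.

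Altogether 12 members were higher in shade at 4 hours without overlap. *DOT1*, which encodes a glycine-rich protein with a role in leaf venation, had 22.7 and 17.2 CPM in shade at 1 hour, against 43.3 and 43.8 CPM in sun. At 4 hours it had 20.6 and 23.8 CPM in shade, against 9.48 and 8.31 CPM in sun. The shade level was about the same at both times while the sun level was lower at 4 hours than at 1 hour. Its difference at 4 hours was 1.23 (SE 0.22, adjusted p = 0.0557, limma), and edgeR's quasi-likelihood test gave an adjusted p of 0.0375 and DESeq2 0.0444.

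The largest difference at 4 hours was that of AT2G39725, a protein of the LYR family of iron-sulphur cluster biogenesis by annotation, at 1.77 (SE 0.49, adjusted p = 0.261, limma). It had 3.68 and 2.87 CPM in shade at 1 hour, against 15.7 and 15.6 CPM in sun, then 24.8 and 6.68 CPM in shade at 4 hours, against 1.98 and 4.75 CPM in sun. Its model overlaps by 3 bases that of *RCA* on the opposite strand, whose mean level was 3315 CPM. A homeodomain-like gene, AT4G37180, had 12.8 and 9.88 CPM in shade at 4 hours, against 4.63 and 4.27 CPM in sun, a difference of 1.17 (SE 0.29, adjusted p = 0.195, limma). *SOUL-1*, a heme-binding protein by annotation, had 12.8 and 9.01 CPM in shade, against 6.4 and 4.75 CPM in sun, at 0.85 (SE 0.34, adjusted p = 0.506, limma).

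In the 12 genes the median difference at 4 hours was 0.58, and in 9 of them both sun libraries at 4 hours were below both sun libraries at 1 hour. Levels in sun also differed between ZT 8 and ZT 5. Both 4 hour sun libraries were below both 1 hour sun libraries in 53 of the 114 members (46.5%), against 22.5% of all tested genes, and above them in 10 (8.77%), against 33% of all tested genes. Since the rule required a high level in sun at 1 hour, those shares are a description only. The medians over members of the mean level were 9.69 CPM in shade and 18.4 CPM in sun at 1 hour, and 14.9 CPM in shade and 15.6 CPM in sun at 4 hours. In 85 members the mean in shade was higher at 4 hours than at 1 hour, and in 79 the mean in sun was lower. The rule chose genes with low shade and high sun values at 1 hour, so these medians and counts are also a description only.

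Applied at 4 hours, the rule would take 7 of the 114 in the same direction (6.14%), against 1.26% of all tested genes. In the opposite direction, with 10 CPM asked of the shade mean in place of the sun mean, it would take 5 (4.39%), against 0.97%. These bases are unlike: every member reached 10 CPM in sun at 1 hour, as did only 12382 of the tested genes. Because the rule asks for 10 CPM in sun, or in shade when turned round, genes with low levels bring down the shares of all tested genes. The shares among genes at that level were not computed. The 7 were *FLS1*, AT4G19380, AT5G17700, *TRX5*, *ERD5*, *SIP2* and AT4G30150, and the 5 were AT2G39725, *DOT1*, AT4G37180, *NIA1* and *SOUL-1*. AT4G19380, a long-chain fatty alcohol dehydrogenase by annotation, had 5.14 and 6.68 CPM in shade at 4 hours, against 18.5 and 12.8 CPM in sun, at -1.26 (SE 0.33, adjusted p = 0.227, limma). AT5G17700, an efflux carrier of the MATE family, had 12.8 and 17.1 CPM in shade, against 30.7 and 34.2 CPM in sun, at -1.07 (SE 0.32, adjusted p = 0.33, limma). Shade and sun libraries were well apart in both. *TRX5*, a thioredoxin that reduces the immune regulator NPR1, had 5.19 and 3.74 CPM in shade at 1 hour, against 19.2 and 18.7 CPM in sun, then 5.99 and 4.36 CPM in shade at 4 hours, against 14.8 and 7.83 CPM in sun. At 4 hours the groups did not overlap, which the rule had required at 1 hour only, and the difference was -0.95 (SE 0.34, adjusted p = 0.447, limma).

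Hormone genes other than those of jasmonate were few. *YUC6* and *TAA1* encode enzymes of the 2 steps that make auxin from tryptophan, and *ARF17* encodes an auxin response factor. *YUC6* had 3.24 and 2.59 CPM in shade at 1 hour, against 9.96 and 10 CPM in sun, then 10.3 and 5.23 CPM in shade at 4 hours, against 14.1 and 8.07 CPM in sun, where the libraries overlapped. *TAA1* had 11.7 and 7.47 CPM in shade at 1 hour, against 15.9 and 19.3 CPM in sun, and differed by -0.06 at 4 hours with overlap. *ARF17* had 9.42 and 9.3 CPM in shade at 4 hours, against 12.1 and 12.6 CPM in sun, without overlap. *ARR15*, a response regulator that damps cytokinin signalling, had 0 and 4.36 CPM in shade at 4 hours, against 5.07 and 5.7 CPM in sun. The library at 0 was the smallest, in which 3 reads equal 2.57 CPM, and the difference of -1.46 (SE 0.59, adjusted p = 0.508, limma) became -2.67 when shade replicate 2 was left out and -0.25 when replicate 1 was. *TAA1*, *ARF17*, *NRPA1*, *CDC45*, *APC2*, *UVI4* and *ICK1*, like *IGMT5*, *MBP1* and *TSA1*, were picked after their values were seen.

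Several members act in the nucleolus or in the cell cycle. *NRPA1* encodes the largest subunit of RNA polymerase I, which transcribes rRNA, and *FIB2* encodes fibrillarin, which methylates it. The product of AT4G30150 belongs to the Urb2/Npa2 family, whose yeast member takes part in making the large ribosomal subunit. *NRPA1* had 46.3 and 51.7 CPM in shade at 1 hour, against 83.2 and 84.6 CPM in sun, then 48.8 and 46.5 CPM in shade at 4 hours, against 63.3 and 52.9 CPM in sun. *FIB2* had 62.7 and 81.6 CPM in shade at 1 hour, against 125 and 113 CPM in sun, then 39.4 and 49.1 CPM in shade at 4 hours, against 46.1 and 38.9 CPM in sun. AT4G30150 had 12.8 and 24.7 CPM in shade at 4 hours, against 28.4 and 31.3 CPM in sun, at -0.71 (SE 0.25, adjusted p = 0.442, limma). The 4 hour libraries stayed apart for *NRPA1* and AT4G30150 and overlapped for *FIB2*, whose level in sun was lower at 4 hours. *CDC45*, which is needed to start DNA replication, had 3.43 and 6.98 CPM in shade at 4 hours, against 8.16 and 11.6 CPM in sun. *APC2* and *UVI4*, a subunit and an inhibitor of the anaphase-promoting complex, and *ICK1*, an inhibitor of cyclin-dependent kinases, were also below sun without overlap at 4 hours, by -0.22, -0.33 and -0.33, and *CDC45* by -0.86. None of the 4 passed the test, and their adjusted p in limma was between 0.546 and 0.85. These 4 were picked after their values were seen and are no full list of members with such roles. Among all tested genes 20.9% were lower without overlap.

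By number of reads, 2 neighbouring genes led the group. AT4G22485 (chr4:11844506-11846476) and AT4G22505 (chr4:11851155-11853018), both on the - strand, encode proteins of the lipid-transfer and seed storage family by annotation. AT4G22485 had 215 and 289 CPM in shade at 1 hour, against 469 and 505 CPM in sun, then 443 and 351 CPM in shade at 4 hours, against 532 and 568 CPM in sun. The difference at 4 hours was -0.48 (SE 0.17, adjusted p = 0.431, limma). AT4G22505 had 286 and 359 CPM in shade at 1 hour, against 619 and 517 CPM in sun, then 578 and 438 CPM in shade at 4 hours, against 661 and 635 CPM in sun. At -0.36 (SE 0.17, adjusted p = 0.583, limma) it was the smaller of the pair, and neither overlapped at 4 hours. Of the 40-base windows of AT4G22485, 15.6% occur again in the genome, against 2.41% for AT4G22505, so reads of the length used could be shared, and each gene overlaps another model on the opposite strand (1971 and 1864 bases). Of the 112 members examined in this way, 85 had no repeated window and 3 had at least 10 percent. AT1G62500 of the same family had 42.8 and 51.4 CPM in shade at 4 hours, against 48.1 and 62.9 CPM in sun, with overlap, and *CIA2*, a factor for genes of chloroplast protein import, had 79.6 and 71.5 CPM in shade, against 84.5 and 88.8 CPM in sun, without overlap and at -0.20 (SE 0.15, adjusted p = 0.777, limma).

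The remaining genes of the 12 with the largest 1 hour difference gave mixed values at 4 hours. AT1G07135, a glycine-rich protein, had 57.4 and 8.14 CPM in shade at 4 hours, against 41.9 and 27.3 CPM in sun. *HMT3*, which encodes a homocysteine methyltransferase of methionine synthesis, had 22.3 and 7.27 CPM in shade, against 19.2 and 32.1 CPM in sun. AT4G29700, an alkaline phosphatase-like gene, had 38.5 and 19.2 CPM in shade, against 23.4 and 47.5 CPM in sun. All 3 overlapped. AT4G30250, an ATPase by annotation, had 2.57 and 3.2 CPM in shade at 4 hours, against 7.28 and 7.6 CPM in sun, at -1.12 (SE 0.41, adjusted p = 0.459, limma), and AT1G63250, an RNA helicase by annotation in which 18.7% of the 40-base windows are repeated, had 4.28 and 4.94 CPM in shade, against 5.95 and 4.99 CPM in sun. In these 2 genes shade was below sun without overlap, and in AT1G63250 by only -0.20 (SE 0.32, adjusted p = 0.903, limma).

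Over all 114 genes, the difference at 4 hours was at or below -0.7 in 15, at or above 0.7 in 7 and between -0.3 and 0.3 in 52. The following genes were also picked after their values were seen. Among sugar and cell wall genes, *SWEET17*, a fructose carrier of the vacuole, had 11.1 and 21.5 CPM in shade at 4 hours, against 23.4 and 25.9 CPM in sun, at -0.63 (SE 0.28, adjusted p = 0.562, limma). AT5G62360, a pectin methylesterase inhibitor by annotation, had 30 and 31.1 CPM in shade, against 39.9 and 47 CPM in sun, at -0.49 (SE 0.18, adjusted p = 0.468, limma). Neither overlapped. *PMEPCRA*, a pectin methylesterase, had 54.8 and 12.8 CPM in shade at 4 hours, against 9.92 and 28 CPM in sun, and *PGIP2*, whose product inhibits pectin-degrading enzymes of fungi, had 96.8 and 27.6 CPM in shade, against 45 and 114 CPM in sun. Both overlapped, and both were among the 19 genes with distant shade replicates. Of 2 B3 transcription factors, AT4G31620 differed by -0.97 (SE 0.41, adjusted p = 0.531, limma) with 2.57 and 6.98 CPM in shade at 4 hours, against 9.7 and 9.26 CPM in sun, and AT2G24700 by -0.44 with 13.7 and 14 CPM in shade, against 18.3 and 19.9 CPM in sun. Shade was below sun without overlap in both. *DMS3*, which acts in RNA-directed DNA methylation, had 4.28 and 16.6 CPM in shade at 4 hours, against 14.6 and 14.5 CPM in sun, with overlap, and shares 2243 bases with *emb1796* on the opposite strand.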

How the data were processed

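The 8 libraries come from Col leaves with the apex, and each of the 4 conditions has 2 replicates that pool 5 plants. The authors removed adaptors, mapped single-end reads of 40 bases to TAIR10 and its known genes with TopHat, and deposited 1 CPM value from edgeR per gene and library. Versions, the counting program, its treatment of strand and of reads with several matches, and the scaling method are not given in the sources used here. Dividing each deposited CPM by the smallest one above 0 in its library gave whole read counts (100% of values within 0.01 of a whole number). All 8 columns were used.

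The members and the gene lists were chosen with earlier results of these data known. The pathway lists were written from general knowledge, and the annotation does not give the names *JOX1* to *JOX4*, *UGT75C1*, *UGT89C1*, *UGT74C1* and *PRODH2* to the locus codes used for them. Members were found on log2(CPM + 1) by the rule given with the results. Shade was tested against sun at 4 hours in the 19280 genes that reached 1 CPM in at least 2 libraries, with limma 3.58.1 in R 4.3.3 on log2(CPM + 1), with 1 mean per condition (4 residual degrees of freedom), a spread moderated along a trend with the level, and Benjamini-Hochberg adjustment over all 19280 genes. A difference on this scale understates the fold change of genes with low levels. The study's threshold of 0.001 and the looser 0.05 were both counted. The replicates are called biological in the study, and each pools plants of 1 condition. The members named first are the 12 with the largest 1 hour difference, those of each pathway list (at most 4), the 5 lowest and 5 highest at 4 hours without overlap, the 3 nearest the threshold on either side, the 5 with the highest level in sun at 1 hour, and the 2 leading genes of families shared by at least 4 members. Others were picked after their values were seen. Alternatives were pseudocounts of 0.25 and 5, other filters and scalings, a replicate block, each library left out, and edgeR 4.0.16 (quasi-likelihood, and exact with a common dispersion) and DESeq2 1.42.0 on the recovered reads. Promoters, positions and 40-base windows come from the TAIR10.1 genome and RefSeq annotation, to which 32835 of the genes in the table were matched. Tables were joined in pandas 2.3.3 (Python 3.11.15, numpy 2.4.6), and plots drawn in matplotlib 3.10.9.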

Additional observations from a re-analysis of the deposited data

Results flagged for a closer look

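In 12 members both shade libraries were below both sun libraries at 1 hour and above them at 4 hours. The difference between the responses at the 2 times was not tested, because the 1 hour libraries chose the genes. The shade minus sun difference at 4 hours, in log2(CPM + 1), was 1.77 for AT2G39725, 1.23 for *DOT1*, 1.17 for AT4G37180, 0.94 for *NIA1* and 0.85 for *SOUL-1*. It was 0.58 for AT2G29670 (a tetratricopeptide repeat protein) and for AT4G12290 (a copper amine oxidase), 0.44 for AT4G27100 (a Rab GTPase-activating protein) and 0.38 for AT1G08220. The smallest were 0.28 for AT2G19090, 0.23 for AT2G44940 and 0.19 for AT3G16560 (a protein phosphatase). AT2G29670 had 43.7 and 34 CPM in shade at 4 hours, against 25.4 and 25.4 CPM in sun, and AT4G12290 had 47.1 and 35.7 CPM in shade, against 30.2 and 24.2 CPM in sun. Of the 12, 2 share sequence with another model on the opposite strand by more than a few bases, AT2G19090 over 165 bases and *SOUL-1* over 672 bases. At 4 hours 16.9% of all tested genes were higher in shade without overlap, and at an unadjusted p of 0.05 in limma 7 of the members were higher, of which *DOT1* had the smallest adjusted p, 0.0557.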

How the results depend on the processing

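The number of members rests on the cut-offs. The rule took 39 genes with a pseudocount of 5, 219 with a minimum of 5 CPM, 53 with a minimum of 20 CPM, 24 with a difference of at least 1, and between 172 and 328 with 1 of its 4 libraries left out. At 4 hours, members with an adjusted p under 0.05 numbered 0 in limma (of 23 genes in all), 2 with a filter of 5 CPM (of 25), 2 in edgeR's quasi-likelihood test (of 28), 9 in edgeR's exact test (of 278), 2 in DESeq2 (of 49) and between 0 and 14 with 1 library left out (of 0 to 921), and under 0.001 they numbered 4 in edgeR's exact test (of 112) and 0 to 1 with 1 library left out (of 0 to 33). Replicate numbers do not pair the libraries by any label, and shade and sun libraries of 1 number had a correlation of -0.0632 between their deviations at 4 hours, so the model with a replicate block, which called 1 member at 0.05 (of 30 genes), says nothing of pairing. The median difference at 4 hours was -0.36 in members lower by at least 1 at 1 hour. Members lower without overlap numbered 6 of those 24 and 16 of the 53 with at least 20 CPM, and 44 to 60 with 1 library left out (38.6% to 52.6%, against 31.8% to 44.2% of all tested genes), and members higher without overlap numbered 4, 5 and 20 to 36 (27.1% to 37.4% of all tested genes). With all libraries kept, 20.9% of all tested genes were lower and 16.9% higher without overlap. Filters and other tools give no count of overlaps. For 38 named members 722 values under alternatives were computed: 672 kept direction and side of the threshold, 25 crossed to an adjusted p under 0.05 and 25 changed direction, 23 of these with a 4 hour library left out. *SZF1* was 0.0052 with quantile normalization and 0.0076 with median ratio rescaling.

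With 1 library at 4 hours left out, the difference ranged from -2.41 to 3.19 for *VSP1*, -1.93 to 0.40 for *TIFY7*, -0.84 to 2.29 for *GolS1*, -1.93 to 0.74 for AT1G07135, -0.78 to 0.21 for AT4G29700, -0.39 to 1.74 for *CYP81F4* and AT4G37409, -0.61 to 2.67 for *LOX3*, -0.70 to 0.29 for *TIFY10B*, -1.12 to 0.055 for *CLH1*, -0.64 to 0.62 for *SZF1*, -0.10 to 0.21 for *FIB2* and -0.14 to 0.61 for AT5G10320. With 2 libraries a condition, and the smallest of them in shade at 4 hours, differences of low genes at 4 hours are the least certain.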
